A study of Homo sapiens with 13 samples.

Results

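Chromosome 14 of the H82 cell line carries long stretches in which accessible regions lie almost edge to edge while the same bases of the H146 line hold a few narrow regions. They were examined between 21 and 62 Mb (hg38), where the H82 atlas listed 2237 regions and the H146 atlas 1460, together 3697 of the 381020 regions listed for both lines on chromosomes 1 to 22, X and Y. The interval was divided into 820 windows of 50 kb, and a window was called dense where H82 regions covered at least 50% of its bases and H146 regions under 10%. This held for 53 windows, which were thus chosen by the covered shares measured here, so those shares are given as a description and no test was made on them. Over the whole genome 0.168% of 61751 windows met the rule, and nothing is read from the count in the interval, since the interval was chosen for it.

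The atlases come from ATAC-seq of H82 and H146, established human cell lines of small cell lung cancer (SCLC) with neuroendocrine features, H82 of the subtype named after NEUROD1 and H146 of a different one. The study asked how the chromatin of such cells changes when FHD-286 blocks SMARCA4 and SMARCA2, the ATPases of the SWI/SNF remodelling complex. Wild-type cells of either line were kept untreated (4 H146 and 3 H82 libraries) or given FHD-286 at 100 nM for 14 days (3 libraries of each line). For each line the peaks of all untreated and treated libraries had been merged into 1 atlas of positions, with no height, read count or library of origin, so depth was unknown, no value had a replicate error and the effect of FHD-286 was not tested. Of the H146 libraries, 3 untreated ones had been sequenced in 1 batch and the remaining ones in another, which the merged atlas cannot separate.

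ATAC-seq marks open chromatin because the Tn5 transposase inserts its adaptors where nucleosomes leave DNA free. A promoter or enhancer normally gives an isolated narrow peak, with long closed sequence on either side. Peak callers compare reads with a local or genome-wide background, so a segment present in many DNA copies can pass the threshold over much of its length even where its chromatin is no more open per copy. DNA copies were not measured in these libraries, and in everything that follows more DNA copies and more open chromatin per copy cannot be told apart.

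The labelled lines were checked at the transcription start sites (TSSs) of marker genes, taking a region within 1 kb of the TSS. NEUROD1, the basic helix-loop-helix factor that defines the subtype of H82, had such a region in H82 and none in H146. INSM1, SYP, CHGA and NCAM1, which mark neuroendocrine cells, had one in both lines, as did POU2F3 and YAP1, which mark SCLC of other subtypes. Across 24 chromosomes the atlases covered 5.41% (H82) and 4.49% (H146) of the bases, with median region widths of 482 and 499 bp. The atlases also shared region ends: 19180 of the 206927 H82 regions (9.27%) began and ended at the same bases as an H146 region. In the dense stretches this was the case for 1 of 540 H82 regions (0.185%), and the source of these identical ends was not tested.

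The outer limits of the dense stretches were placed at the resolution of the regions. H82 regions whose gaps were at most 5 kb were first joined into pieces. Around each run of dense windows, a stretch began with the piece that overlapped the first window most. It ended with the piece that overlapped the last window most. Wider gaps between pieces could therefore remain inside a stretch. The 10 runs then fell into 8 stretches, numbered 1 to 8 along the chromosome, and their edges are among the main measurements. The stretches also took in windows that were not dense. In stretch 2 the run ended at 23300000, and the windows that start at 23300001 and 23350001 had 12.9% and 13.3% in H146. The reference sequence (hg38, plus strand) is shown for 5 edges, because these are the positions at which the H82 regions begin or stop under this rule. With edges placed at the outermost H82 region of at least 5 kb, those of stretch 1 moved inward by 2.42 kb (left) and 1.1 kb (right). The left edges of stretches 2 and 4 moved by 3.77 and 19.3 kb, and the right edge of stretch 2 stayed in place. Capitals mark the 60 bases that lie inside the stretch, and lower case the 60 bases outside it.
Left edge of stretch 1 (chr14:21723388-21723507): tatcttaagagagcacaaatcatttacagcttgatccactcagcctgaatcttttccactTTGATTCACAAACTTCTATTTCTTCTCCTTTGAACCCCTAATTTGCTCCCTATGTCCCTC
Right edge of stretch 1 (chr14:22036316-22036435): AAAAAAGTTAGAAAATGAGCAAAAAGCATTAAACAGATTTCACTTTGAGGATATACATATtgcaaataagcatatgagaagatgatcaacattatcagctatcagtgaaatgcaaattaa
Left edge of stretch 2 (chr14:23167194-23167313): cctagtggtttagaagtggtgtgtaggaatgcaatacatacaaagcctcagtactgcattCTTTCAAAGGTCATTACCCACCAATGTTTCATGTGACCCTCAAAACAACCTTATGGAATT
Right edge of stretch 2 (chr14:23414328-23414447): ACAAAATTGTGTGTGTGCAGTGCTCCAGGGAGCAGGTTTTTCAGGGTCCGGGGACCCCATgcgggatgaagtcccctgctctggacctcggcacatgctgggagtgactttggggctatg
Left edge of stretch 4 (chr14:56095738-56095857): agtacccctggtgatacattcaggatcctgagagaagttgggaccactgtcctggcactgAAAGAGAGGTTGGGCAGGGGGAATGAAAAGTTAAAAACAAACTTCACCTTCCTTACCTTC
In these 5 windows every 31-base word occurred once in the genome. This held for 13 of the 16 edges, and at the other 3 between 0% and 63.3% of the words occurred once.

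Stretches 1 and 2 lay in the T cell receptor alpha locus and in the gene-rich segment that ends in the cardiac myosin genes. Stretch 1 (chr14:21723448-22036375) was 313 kb long and was covered to 87.8% in H82 and 0.0847% in H146. Stretch 2 (chr14:23167254-23414387) was 247 kb long and was covered to 96% in H82 and 7.17% in H146. Stretch 3 (chr14:46263567-46318887) stood alone in a gene-poor part of the chromosome, with 55.3 kb covered to 75.2% in H82 and no H146 region. The remaining stretches lay closer together, within 3.96 Mb around OTX2 and RTN1. Stretch 4 (chr14:56095798-56640377, 545 kb) was covered to 73% in H82 and 3.06% in H146, and stretch 5 (chr14:56673647-57097384, 424 kb) to 78.1% and 4.61%. Stretch 6 (chr14:57120518-57433085, 313 kb) was covered to 68.5% and 3.25%. The longest, stretch 7 (chr14:57690662-58245385, 555 kb), reached 85.4% in H82 against 1.71% in H146. Stretch 8 (chr14:59554075-60054188, 500 kb) was covered to 70% and 4.33%. Together they spanned 2.95 Mb, and H82 regions covered at least 68.5% of each.

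**Figure D1:**
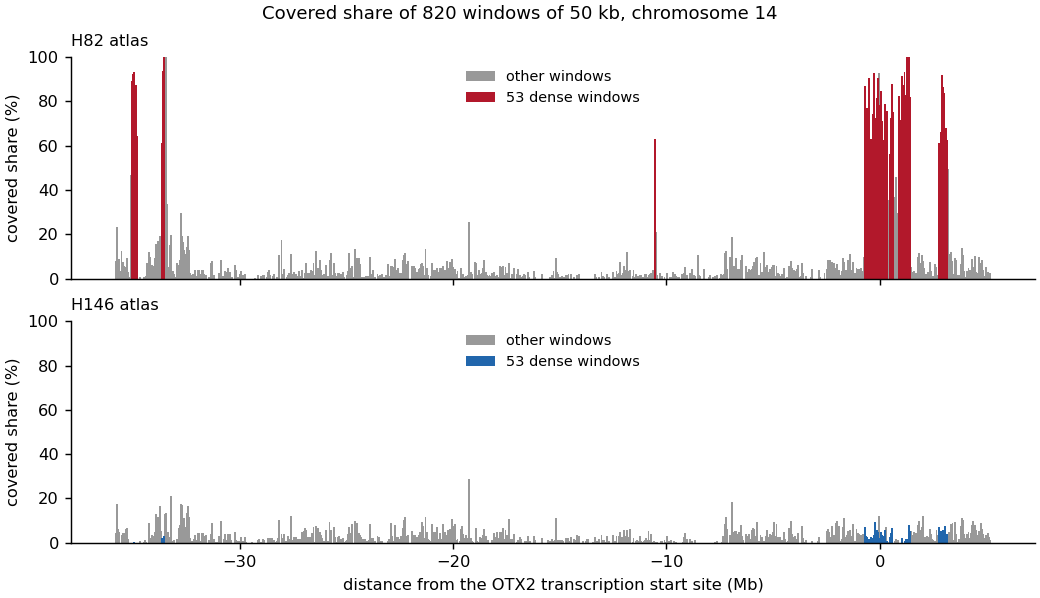
Share of each 50 kb window covered by regions (vertical axis, %) in the H82 atlas (top) and the H146 atlas (bottom) against the distance of the window from the OTX2 start site (horizontal axis, Mb), with the 53 dense windows in colour. The dense windows stand between 52.3% and 100% in H82 and between 0% and 9.4% in H146.

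**Figure D2:**
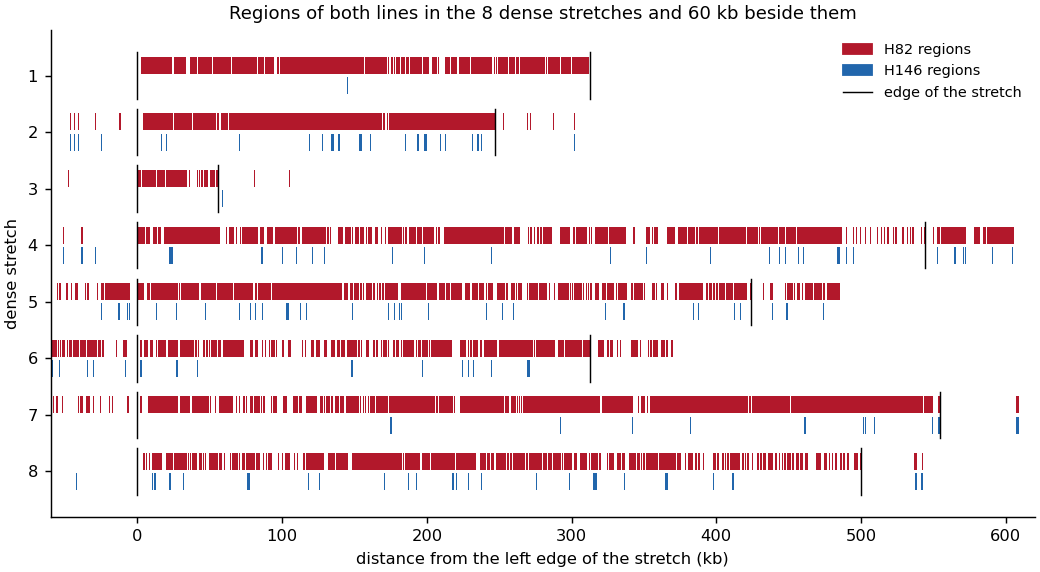
H82 regions (red) and H146 regions (blue) in the 8 dense stretches and 60 kb beside them, drawn to scale against the distance from the left edge (horizontal axis, kb), with black lines at the edges. In H82 the regions form nearly continuous bars with short gaps, and in H146 at most 37 regions fall in any 1 stretch.

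The 53 dense windows had a median of 78.3% of their bases covered in H82, against 2.3% in H146. In the 767 other windows the medians were 1.89% and 1.46%. The lowest H82 value among the dense windows was 52.3% and the highest 100%, and 13 of the 53 had no H146 region at all. Just inside the H82 threshold stood the window that starts at 57750001, at 52.3%, and just outside it the window that starts at 60000001, at 49.4%. Just inside the H146 threshold, the window that starts at 56550001 had 9.4% of its bases covered in H146. Just outside it, the window that starts at 56750001 had 11.9%. That window and those that start at 23300001 and 23350001 were the 3 windows with at least 50% in H82 that the H146 threshold removed. The converse did not occur, since the highest H146 window of the interval was covered to 28.8%. Outside the dense windows H82 had the higher share in 363 windows, H146 in 264, and the lines were equal in 140.

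The dense windows of the interval were not the only ones. The genome held 104, of which 71 lay on chromosome 14, 21 on chromosome 8 and 12 elsewhere. Of the 18 dense windows of chromosome 14 outside the interval, 10 formed a run just past its end, at 62.3 to 62.8 Mb, covered to 85.1% in H82 and 2.33% in H146. Another run of 5 at 85.95 to 86.2 Mb was covered to 90.1% and 1.1%. No window of the genome was dense by the same rule with the lines exchanged. H146 did cover at least 50% of 27 windows of chromosome 14, none of them in the interval, and of 22 windows of chromosome 18. H82 did so in 94 and 7 windows of these chromosomes. Every window with at least 50% in H146 had 10% or more in H82.

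What set the dense windows apart in H82 was the width of the regions as well as their number. Over the dense windows H82 had 173 regions per Mb with a median width of 1644 bp, against 46.4 per Mb and 494 bp in the rest of the interval. H146 had 44.9 per Mb with a median of 475 bp in the dense windows, and 35 per Mb with a median of 519 bp elsewhere. H146 regions there thus had about the width they had elsewhere. From edge to edge the 8 stretches held 540 H82 regions, and 52 of them were at least 10 kb wide. These 52 made up 54.4% of the covered bases. In the interval outside the stretches, 1 H82 region was that wide, and no H146 region of the interval was.

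The widest single region (chr14:23230350-23336219) ran for 106 kb in stretch 2, from RNF212B across HOMEZ, PPP1R3E and BCL2L2 to PABPN1. The same bases held 7 separate H146 regions that covered 7.71% of them. The region next to it (chr14:23340892-23414387) was 73.5 kb wide and carried 10 H146 regions. In stretch 7 a region of 90.9 kb (chr14:58142359-58233289) lay inside ARMH4 and spanned most of ACTR10, with 6 H146 regions beneath it. In stretch 1 the widest region (chr14:21822110-21879857) measured 57.7 kb and had 1 H146 region, covering 0.459% of it. A region of 34.7 kb (chr14:59702253-59736944) within RTN1 was the widest of stretch 8 and overlapped 2 H146 regions. The number of H146 regions under a wide H82 region also varied within a stretch. In stretch 7 a region of 67.6 kb lay over 2 H146 regions, and a region of 30.4 kb over none.

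The edges differed in how abruptly the H82 regions ended. Because pieces were joined across gaps of at most 5 kb, the 5 kb just outside every edge held no H82 region by rule. An edge was called sharp where H82 regions covered at least 50% of the 20 kb inside it and under 10% of the 20 kb outside. This held for 8 of 16 edges. The share at the left edge of stretch 1, whose sequence is shown above, dropped from 89.7% inside to 0% outside. At the right edge of stretch 1 it dropped from 91.7% to 0%, and the next H82 region was 63.9 kb away. Both edges of stretch 3 (87.2% and 53.1% inside) and the left edge of stretch 4 (64.8% inside) also had 0% outside. In these 5 places H82 thus passed from a dense stretch to no region within 20 kb. H146 had no region in the 20 kb on either side at 4 of the 5. At the right edge of stretch 3 it had none inside and 1.31% of the bases outside.

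The other sharp edges lay inside genes. The left edge of stretch 2 fell in an intron of SLC7A8, which encodes the amino acid transporter LAT2, with 84.3% inside and 7.79% outside. Its right edge fell in an intron of MYH7, the beta myosin heavy chain of heart and slow muscle, with 100% inside and 4.96% outside. The right edge of stretch 7 was the end of the region at the TSS of PSMA3, a proteasome subunit, with 78.6% inside and 1% outside. The H146 region at this TSS ended at the same base, 58245385, so this edge coincided with the limit of an ordinary promoter region present in both lines. In all, 7 of the 16 edges lay within the bodies of protein-coding genes.

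The edges of stretch 8 missed the rule on their inner side, with 49.8% and 47.2% inside and 1.74% and 0% outside. Between stretches 4 and 7, in contrast, H82 regions went on outside the edges. The space of 33.3 kb between stretches 4 and 5 was still covered to 58.9% in H82, in 3 regions. The space of 23.1 kb between stretches 5 and 6 was covered to 13.6%. In the 20 kb beyond the right edge of stretch 5 only 32.5% of the 31-base words occurred once in the genome, against 94.1% inside. Within that space reads can be placed with less certainty, so the interruption cannot be told apart from a loss of uniquely placed reads. The space of 258 kb between stretches 6 and 7 was covered to 33.1% in H82 and 0.674% in H146, and had 252 H82 regions per Mb against 15.5 in H146. It was thus richer in H82 regions than the interval, though below the threshold for a dense window. Among the longer spaces, the 1.13 Mb between stretches 1 and 2 were covered to 6.71% in H82 and 4.02% in H146, and the 0.723 Mb before stretch 1 to 6.71% and 4.3%. The shares lay closer together farther along the chromosome. The 22.8 Mb between stretches 2 and 3 were covered to 2.69% in H82 and 2.42% in H146, and the 1.31 Mb between stretches 7 and 8 to 4.01% and 3.75%.

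**Figure D3:**
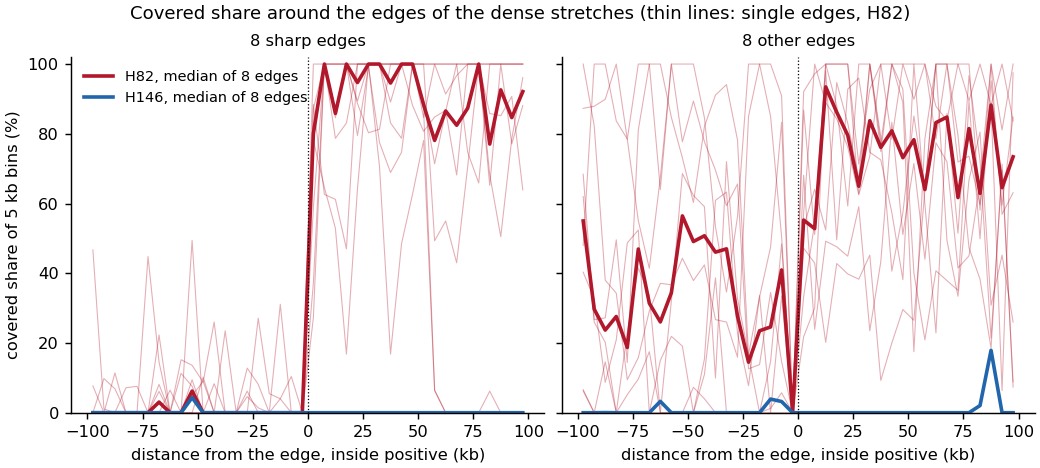
Covered share of 5 kb bins (vertical axis, %) against the distance from the edge (horizontal axis, kb, positive inside the stretch) for the 8 sharp edges (left) and the 8 other edges (right). Thin lines are single edges in H82, and thick lines the medians of H82 and H146. The 5 kb just outside every edge is empty in H82 because of the joining rule. In the left panel H82 stays low outside the edge, as the definition of a sharp edge requires. In the right panel H82 rises again beyond those 5 kb.

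The left edge of stretch 1 lay 265 bp before the first base of TRAV3, one of the variable (V) segments of the T cell receptor alpha chain. In developing T cells such a segment is joined by recombination to a J segment. The right edge lay between TRAV19 (chr14:22007512-22008181) and TRAV20 (chr14:22040594-22041153). Stretch 1 held 24 of the 49 V genes annotated on chromosome 14 and none of the 60 J genes, the 3 D genes or the 2 constant genes. It held no protein-coding gene of another kind. All 24 V genes were touched by H82 regions and 23 were wholly covered, the exception being TRAV3 at 15.8%. With edges placed at the outermost H82 region of at least 5 kb, the left edge moved to 21725870, which left TRAV3 outside the stretch. None of the 24 was touched by an H146 region. Of the 22 V genes after the stretch, none was touched in H82 and 1 in H146. The V genes at the border, TRAV19 and TRAV20, thus went from 100% to 0% covered in H82. On average 94.3% of the 31-base words of the V genes inside the stretch occurred once in the genome, and 98.3% of those after it.

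Stretch 3 lay wholly within LINC00871, a long non-coding RNA gene (chr14:45891087-46501903), of which H82 regions covered 8.14% and H146 regions 1.27%. The stretch made up most of that covered sequence. The nearest H82 regions lay 47.3 kb before it and 25.5 kb after it.

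In all, 26 protein-coding genes overlapped a stretch, 13 of them in stretch 2. H82 regions covered a larger share of the gene body at 25 of the 26, with a median of 88.2% in H82 and 4.08% in H146. The exception was PSMA3, at 2.73% and 2.75%, of which only the first bases lie in stretch 7. For the 236 protein-coding genes of the interval that overlapped no stretch the medians were 5.62% and 4.59%, and H82 was higher at 131 and H146 at 83, with equal values at 22. Since dense windows were picked for H82 coverage, a high share over genes in them follows from the choice and is given only to describe the genes.

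Of the 24 protein-coding genes whose TSS lay in a stretch, 18 had a region within 1 kb of it in both lines and 6 (25%) in H82 only. Of these genes, 16 had their TSS in a dense window, with a region in both lines at 12 and in H82 only at 4 (25%). The corresponding share over all 20033 protein-coding genes was 5.1%, and it was 5.04% for the 238 other genes of the interval. The 6 genes were RNF212B, BCL2L2, IL25, MYH6, TMEM260 and OTX2. In sequence this densely covered nearly any TSS meets an H82 region, so the count was set by H146, and it says nothing of promoter activity in H82. It also rested on the distance of 1 kb. The nearest H146 region lay 1355 bp from the TSS of RNF212B, 1930 bp from that of BCL2L2, 2756 bp from that of MYH6, 2845 bp from that of TMEM260 and 3807 bp from that of IL25. OTX2 alone of the 6 had none within 5 kb, with the nearest 5193 bp away. Where both lines had a TSS region, its median width over the 19 genes that overlap a stretch was 37484 bp in H82 and 1388 bp in H146. For the 183 genes that overlap no stretch, the median width was 1590 and 1527 bp.

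**Figure D4:**
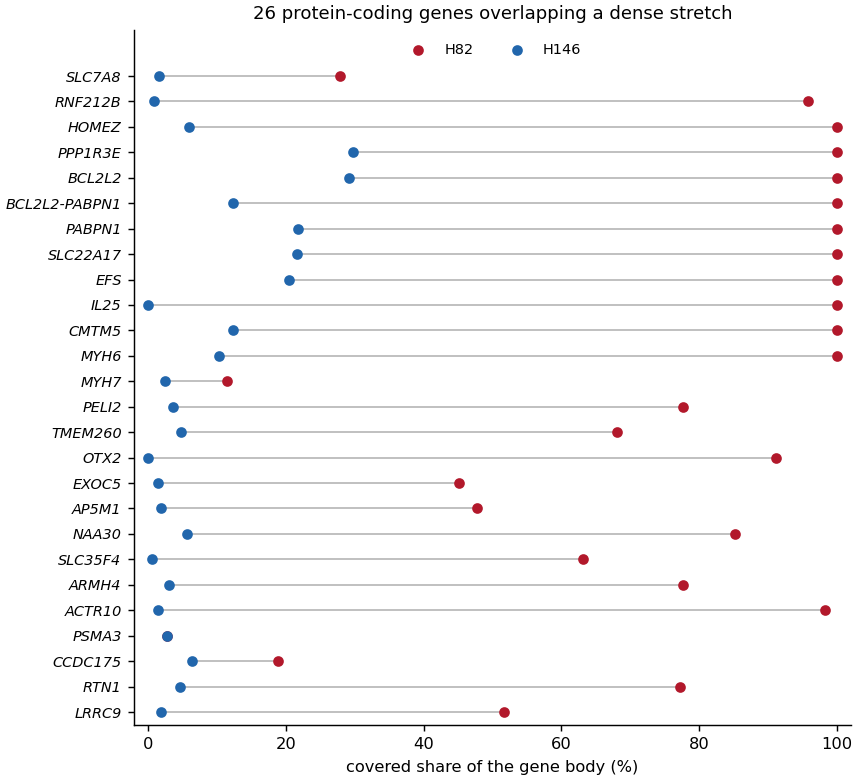
Share of the gene body covered by regions (horizontal axis, %) for the 26 protein-coding genes that overlap a dense stretch, in chromosomal order from the top, with red points for H82 and blue points for H146. Genes from HOMEZ to MYH6 are at 100% in H82, and PSMA3 has nearly equal values in both lines.

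Of the genes wholly inside stretch 2, all but RNF212B were covered over their whole body in H82. HOMEZ, a homeobox and leucine zipper protein, had its whole body covered in H82 and 5.95% in H146. PPP1R3E, a glycogen-targeting subunit of protein phosphatase 1, was covered to 100% and 29.7%. BCL2L2, which encodes the anti-apoptotic protein BCL-W, was covered to 100% and 29.2%, and PABPN1, a nuclear poly(A)-binding protein, to 100% and 21.8%. BCL2L2-PABPN1, an annotated read-through of both genes, shares their bases and is not an independent value (100% and 12.3%). Since 1 region of 106 kb lay over all of these, the H82 atlas did not resolve a promoter of any of them. H146 had separate TSS regions at HOMEZ and PPP1R3E (1 shared region of 2399 bp) and at PABPN1 (1943 bp).

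The second wide region of stretch 2 covered SLC22A17, a receptor for lipocalin-2, EFS, a docking protein of Src kinases, IL25, a cytokine of type 2 immunity, CMTM5, a membrane protein of the chemokine-like factor family, and MYH6, the alpha myosin heavy chain of heart. All were at 100% in H82 and lay past the dense windows of the stretch. In H146 the shares were 21.6% for SLC22A17, 20.5% for EFS, 0% for IL25, 12.3% for CMTM5 and 10.3% for MYH6. MYH6 and MYH7 are close paralogs that lie side by side, and only MYH6 was wholly inside. The body of MYH7 was covered to 11.5% in H82 and 2.4% in H146. At the other end of the stretch, RNF212B, a gene of meiotic crossing over, was covered to 95.8% and 0.928%. SLC7A8 shared its TSS region of 20637 bp in H82 with RNF212B, while the H146 region at the SLC7A8 TSS was 430 bp wide.

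OTX2 (chr14:56799905-56816693, minus strand), a homeobox transcription factor of the developing forebrain and eye, was the only protein-coding gene of stretch 5. Its body was covered to 91.2% in H82, in 3 regions, and held no H146 region. The H82 region at its 5′ end was 2979 bp wide. Regions covered 84% of the bases within 10 kb of the TSS in H82, against 3.86% in H146. The antisense long non-coding gene OTX2-AS1 (chr14:56813183-57152177), which reaches from stretch 5 into stretch 6, was covered to 67.5% and 4.19%. RTN1 (chr14:59595976-59870776, minus strand), which encodes reticulon 1, a protein of the endoplasmic reticulum abundant in neuroendocrine cells, filled a large part of stretch 8. H82 covered 77.2% of its body in 54 regions and H146 4.58% in 20. Both lines had a region at its TSS, 4316 bp wide in H82 and 2237 bp in H146. OTX2 thus lacked H146 regions both at its 5′ end and along its body, whereas RTN1 had an H146 promoter region and scattered H146 regions beneath the dense H82 coverage.

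A promoter window of each gene is shown, as an example of a window covered in H82 only and of a window covered in both lines. They are the 250 bases before an annotated start in RefSeq (GRCh38.p14, minus strand), in lower case throughout because no part is singled out. The OTX2 start is an alternative one, inside the gene body given above, and is not the TSS at which the region in H82 only was called.
OTX2 (chr14:56810480-56810729): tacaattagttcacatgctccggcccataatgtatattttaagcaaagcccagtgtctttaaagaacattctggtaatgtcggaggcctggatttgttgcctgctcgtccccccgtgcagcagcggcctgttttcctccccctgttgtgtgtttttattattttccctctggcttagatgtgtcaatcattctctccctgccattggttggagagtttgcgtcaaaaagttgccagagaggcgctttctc
RTN1 (chr14:59870777-59871026): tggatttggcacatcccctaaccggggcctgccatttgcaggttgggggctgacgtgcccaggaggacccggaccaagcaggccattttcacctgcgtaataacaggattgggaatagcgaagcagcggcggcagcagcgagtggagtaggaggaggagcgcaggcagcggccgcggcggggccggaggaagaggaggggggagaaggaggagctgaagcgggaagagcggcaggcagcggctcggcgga
The OTX2 window had a GC content of 47.2% and was covered to 100% in H82 and 0% in H146. The RTN1 window had a GC content of 66% and was covered to 100% in both lines. Windows at other annotated starts are not shown. At OTX2, chr14:56805668-56805917 was covered to 100% in H82 and 0% in H146. At RTN1, chr14:59630624-59630873 was covered to 100% in both lines and chr14:59610140-59610389 to 0% in both.

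Of the other genes of stretch 4, PELI2, a ubiquitin ligase of innate immune signalling, was covered to 77.6% in H82 and 3.59% in H146. Its TSS region was 37484 bp wide in H82 and 3163 bp in H146. TMEM260, an O-mannosyltransferase, was covered to 68% and 4.83%, and the right edge of stretch 4 fell in its body. In stretch 6, EXOC5, a subunit of the exocyst, and AP5M1, a subunit of an endosomal adaptor complex, share a promoter region of 6694 bp in H82 and 1388 bp in H146. Their bodies had the lowest H82 shares among genes wholly inside a stretch, 45.1% for EXOC5 and 47.7% for AP5M1, against 1.48% and 1.88% in H146. NAA30, the catalytic subunit of an N-terminal acetyltransferase, was covered to 85.2% and 5.7%. A gene could therefore lie wholly within a stretch with its body less than 50% covered.

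In stretch 7, SLC35F4, a solute carrier, was covered to 63.1% in H82 in 91 regions and to 0.56% in H146 in 4. ARMH4, a membrane protein, had 77.6% and 2.99% of its body covered although its own TSS lay 52.8 kb outside the stretch. The region at that TSS was 2469 bp wide in H82 and 2390 bp in H146. ACTR10, a subunit of dynactin, was covered to 98.2% and 1.5%. The promoter of ARMH4 outside the stretch was thus of similar width in both lines while the part of the same gene inside was dense in H82. In stretch 8, CCDC175, a coiled-coil protein, was cut by the left edge (18.8% and 6.4%), and LRRC9, a leucine-rich repeat protein, by the right edge (51.7% and 1.89%).

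Developmental and neuronal genes of the interval outside the stretches differed in both directions. Of 14 lineage transcription factors, OTX2 alone lay in a stretch, and of the other 13, H82 had the higher share of the gene body at 9 and H146 at 2. Among all 236 protein-coding genes of the interval that overlap no stretch, H82 was higher at 131 and H146 at 83. The counts of the lists are therefore not read as a trait of these genes. PAX9, a factor of pharyngeal pouch and vertebral development, had a TSS region in H82 only. FOXA1, a pioneer factor of endoderm, was higher in H146, at 57.8% in H82 and 75.9% in H146. NKX2-1, the lung and thyroid factor, was at 44.4% and 38.5%. Of the 11 neuronal, neuroendocrine and Hippo genes other than RTN1, H82 was higher at 7 and H146 at 4. None of them had a TSS region in H82 only, against 5.04% of the 238 genes of the interval with their TSS outside the stretches. AJUBA, a LIM protein of Hippo signalling, was at 40.4% and 25.6%, and GCH1, the first enzyme of tetrahydrobiopterin synthesis, at 3.57% and 7.34%.

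The gaps between H82 regions inside the stretches were short and poor in GC. There were 532 gaps with a median of 868 bp (quartiles 637 and 1344 bp), and 3 were longer than 5 kb. The shortest possible gap is 501 bp, because the peaks within 500 bp had been merged. GC content was 33.8% over the uncovered bases and 41.5% over the covered ones, and it was lower in the uncovered bases in 8 of 8 stretches. The 316 gaps of up to 1 kb had a median of 100% unique 31-base words and a median GC content of 33%. The 27 gaps of over 3 kb had a median of 69.2% unique words and a higher median GC content, 37.5%. Over all gaps unique words made up 82.7% of the bases, against 88.8% of the covered bases, with a higher value in the covered bases in 5 of 8 stretches.

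Pieces of 1 kb showed the same relation with GC content in steps. Inside the stretches H82 regions covered 31.2% of the bases of pieces with a GC content under 32%, 63.7% at 32 to 36%, 76.2% at 36 to 40%, 91.5% at 40 to 45% and 97.6% at 45% or more. H146 regions in the same pieces covered between 0.382% and 10.2%, again in rising order. In the rest of the interval the shares rose with GC content as well, by H82 from 0.336% to 12.6% and by H146 from 0.546% to 9.56%. The rise was thus present in both lines and both places, on a higher level for H82 inside the stretches. At a GC content of 45% or more, H146 covered about the same share inside (10.2%) and outside (9.56%). Why coverage rose with GC content was not tested.

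**Figure D5:**
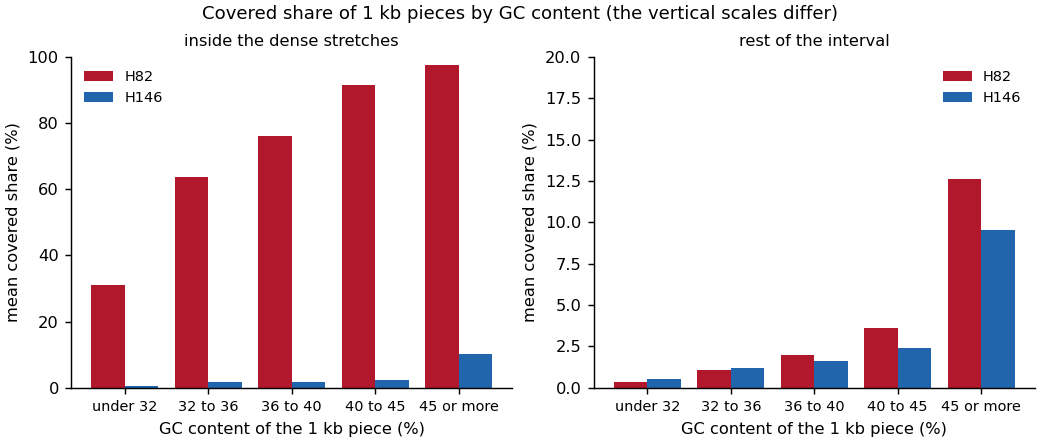
Mean covered share of 1 kb pieces (vertical axes, %, with different scales) by GC content (horizontal axis, %) inside the 8 dense stretches (left) and in the rest of the interval (right), with red bars for H82 and blue bars for H146. H82 rises from 31.2% to 97.6% inside and from 0.336% to 12.6% outside, and H146 rises in both places.

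Pooled over all stretches, H146 regions were no sparser than in the rest of the interval. There were 139, or 47.1 per Mb, against 34.7 per Mb in the rest, with median widths of 506 and 516 bp. They were sparser than in the rest in stretch 1 (1 in 313 kb), stretch 3 (0 in 55.3 kb) and stretch 7 (13 in 555 kb). The other counts were 19 in 247 kb (stretch 2), 26 in 545 kb (stretch 4) and 37 in 424 kb (stretch 5). Stretch 6 held 13 in 313 kb and stretch 8 held 30 in 500 kb. Of the 139, 137 (98.6%) overlapped an H82 region, and 126 lay wholly inside one. H82 regions covered 98.2% of the bases of these H146 regions and 78.6% of all bases of the stretches. The 2 H146 regions that H82 lacked, both in stretch 6, were narrow (chr14:57161911-57162272, 362 bp, and chr14:57203945-57204150, 206 bp). The accessible sites of H146 in these stretches were thus nearly all covered in H82 as well, within much wider regions.

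Sharing between the lines accordingly differed with the direction in which it was counted. In the dense windows 84 of 459 H82 regions (18.3%, 95% Wilson interval 15 to 22.1%) shared at least 1 bp with an H146 region, against 947 of 1778 (53.3%, 50.9 to 55.6%) in the rest of the interval. In the other direction 118 of 119 H146 regions of the dense windows (99.2%, 95.4 to 99.9%) overlapped an H82 region, against 955 of 1341 (71.2%, 68.7 to 73.6%) elsewhere. The intervals cover counting error only. The shared regions include those with identical ends in both atlases, and whether the atlases are independent of each other was not tested. Wide regions overlap more often by position alone, and the rule used the H82 and H146 coverage of the windows, so these shares are a description.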

How the data were processed

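ATAC-seq libraries of H82 and H146 were trimmed by the authors with Trim Galore 0.4.4, aligned to hg38 with Bowtie2 2.3.4 and freed of reads with the same start and orientation with Picard. MACS2 peaks of each library outside blacklisted regions were merged within 500 bp into 1 atlas per line. The deposited values are positions in bp and nothing else, 0 columns of per-sample values were left out, and merging in each line separately lets an atlas gain regions with every further or deeper library. Whether Tn5 cuts were shifted is not given in the sources used here.

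Covered shares, regions joined across gaps of up to 5 kb, gene bodies and TSSs (GENCODE release 44) were computed with Python 3.11.15, numpy 2.4.6 and pandas 2.3.3, after the code was tested on simulated data. Overlap meant at least 1 bp. Words of 31 bases were counted on both strands over chromosomes 1 to 22, X, Y and the mitochondrial genome. Promoter windows were taken from RefSeq and equalled hg38. The planned share of repeat-masked bases was not run, since the reference sequence used carried no masking.

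The members, gene lists and rules were chosen with earlier results of these data known. Named genes were all protein-coding genes that overlap a dense run of windows or hold an edge, 14 lineage factors and 12 neuronal, neuroendocrine or Hippo genes, with values for some of the lists. Some items of the lists are not reported here. Other genes of the stretches, the spaces, the pieces by GC content and the widest regions were described after the data were seen. No test between groups was possible. Alternatives were window size and start, thresholds, joining, a minimum region width of 500 bp, the overlap, the TSS distance and the placing of edges.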

Additional observations from a re-analysis of the deposited data

How the results depend on the processing

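The extent of the dense windows, 2.65 Mb, ranged from 2 to 2.85 Mb over the alternative window sizes, thresholds and region widths, and 75.5% to 100% of its bases were dense again. The number of runs, 10, depended on how windows were cut and joined, with 20 runs in windows of 25 kb, 6 in windows of 100 kb and 6 when runs were joined across 1 other window. It was 9 to 14 otherwise. Sharing fell when overlap of at least 50% of both regions was required. Over the interval it went from 73.5% to 54.4% in H146 and from 46.1% to 35.5% in H82. In the dense windows it fell from 99.2% to 6.72% (8 of 119) in H146 and from 18.3% to 1.74% (8 of 459) in H82. In the rest of the interval the falls were from 71.2% to 58.6% in H146 and from 53.3% to 44.2% in H82. The cause was not tested. The shared regions include those with identical ends in both atlases, whose independence was not tested. Of the 6 start sites in the stretches with a region in H82 only, 1 was left within 5 kb and 0 within 10 kb, and 8 met the condition with regions of at least 500 bp. With edges placed at the outermost H82 region of at least 5 kb, the stretches spanned 2.7 Mb in place of 2.95 Mb, and the right edges of stretches 4 and 8 moved inward by 57.6 and 83.8 kb. That of stretch 3 moved by 24.2 kb, which left 28 kb of its 55.3 kb. Joining across gaps of up to 10 kb, an alternative chosen after seeing the data, gave 6 stretches and 3.29 Mb, with stretches 4 to 6 in 1 stretch of 1543 kb. The remaining results, the covered shares of both lines and the 18 genes in dense windows (16 by their TSS), moved by less than 1.5 times. No paired analysis was possible because the atlases hold no values per library, and for the same reason no library could be left out in turn.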

Other observations

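Besides protein-coding genes, 68 others lay in or across the stretches, of 94 in all, among them 22 long non-coding RNA genes, 27 V genes and V pseudogenes and 11 processed pseudogenes. Both microRNA genes among them were wholly covered in H82 and free of H146 regions. MIR208A (chr14:23388596-23388666, minus strand) lies in an intron of MYH6 and is known from heart muscle, and MIR5586 (chr14:59646962-59647020, minus strand) lies within RTN1. Within 2 kb of the hairpin, H82 covered 100% of the bases at MIR208A and 59.6% at MIR5586, and H146 covered 0% at both. LINC02284, a long non-coding RNA gene next to PELI2, was covered to 77.3% in H82 and 1.28% in H146. These values follow the coverage of the stretches, which were selected on it.

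In the interval, 212 of 2237 H82 regions (9.48%) started at exactly the base at which an H146 region starts, whereas at each offset of 1 to 10 bp a mean of 2.95 did. For region ends the numbers were 197 and 3.4, and 94 regions had both ends at the same bases. Identical starts made up 12.3% of the 1697 H82 regions outside the stretches and 0.741% of the 540 inside. Over 24 chromosomes 35829 of 206927 H82 regions (17.3%) shared their start with an H146 region, against a mean of 292 over the 20 other offsets. The source of these identical positions was not tested, and neither was the independence of the atlases.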
